A study of Mus musculus with 12 samples.

Results

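The genes described here are 10 lipid droplet coat and triglyceride genes of mouse liver, chosen by symbol: Cidea, Cideb, Cidec, Plin2, Plin4, Plin5, Mogat1, Dgat2, Pnpla2 and Pnpla3. They are 10 of the 26031 gene identifiers with counts. RNA of C57BL/6N mouse livers was sequenced in 4 groups of 3 libraries. One group ate regular chow and had no treatment (replicates 8, 17 and 19). The other 3 ate a high-fat diet and were left uninjected (4, 30 and 38), injected with vehicle (15, 23 and 55) or injected with PCN (5, 11 and 27). Diets began at 6 weeks of age and lasted 15 weeks, so both injected groups and the uninjected group share the high-fat diet. PCN (pregnenolone 16α-carbonitrile), which activates the pregnane X receptor of rodents, was given intraperitoneally at 50 mg/kg once a day for 4 days, and the vehicle was 30% DMSO in corn oil. No injected group ate chow. Whether every replicate comes from its own animal is not stated in the labels, so p-values measure the spread between these libraries, which may be technical. Counts for chow and PCN were at hand only where a table listed the gene, which was the case for 7 of the 10 genes. Cideb, Pnpla2 and Pnpla3 were not analysed here in chow and PCN.

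Hepatocytes store triglyceride in lipid droplets, a neutral lipid core inside a phospholipid monolayer that carries coat proteins. Perilipins shield the core and regulate the access of lipases, and CIDE proteins sit where droplets touch and move lipid from a smaller droplet to a larger one. Triglyceride is made by adding fatty acids to a glycerol backbone, with MOGAT and DGAT enzymes at the late steps, and is broken down by lipases of the PNPLA family. In fatty liver several of these genes, which in healthy animals are more typical of fat tissue, are known to be expressed in hepatocytes.

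The letters upstream of 5 of the genes are shown as a description. The 5 were chosen for their place in the results, and no result rests on the letters. Cidec and Mogat1 were both higher on the high-fat diet and lower in the injected groups. Plin4 and Plin5 lie side by side on the same strand of chromosome 17, 1797 bases apart, and had opposite signs of change on the diet, with Plin5 not past the test, and Plin2 is the most abundant coat gene here. Sequences are from RefSeq (GRCm38.p6), written 5′ to 3′ in the direction of the gene and ending at the base before the gene start of the GENCODE annotation. Capitals mark a nuclear receptor half-site (AGGTCA), a GC box (GGGCGG) or a CCAAT box, on either strand.
Cidec (chr6:113435761-113436010, minus strand): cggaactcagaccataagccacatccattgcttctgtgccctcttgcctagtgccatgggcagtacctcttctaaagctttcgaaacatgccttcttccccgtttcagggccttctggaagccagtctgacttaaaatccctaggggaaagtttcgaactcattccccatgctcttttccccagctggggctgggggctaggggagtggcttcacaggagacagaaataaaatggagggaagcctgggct
Mogat1 (chr1:78510810-78510990, plus strand): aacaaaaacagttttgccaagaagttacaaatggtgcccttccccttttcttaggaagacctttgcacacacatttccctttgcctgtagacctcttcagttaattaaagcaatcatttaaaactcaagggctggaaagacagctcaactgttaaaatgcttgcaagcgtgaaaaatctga
Plin2 (chr4:86670061-86670309, minus strand): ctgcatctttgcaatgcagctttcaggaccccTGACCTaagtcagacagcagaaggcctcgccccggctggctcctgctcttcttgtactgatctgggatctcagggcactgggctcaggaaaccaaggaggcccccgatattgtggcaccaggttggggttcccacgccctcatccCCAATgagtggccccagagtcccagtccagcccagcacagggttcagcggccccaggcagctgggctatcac
Plin4 (chr17:56109804-56110032, minus strand): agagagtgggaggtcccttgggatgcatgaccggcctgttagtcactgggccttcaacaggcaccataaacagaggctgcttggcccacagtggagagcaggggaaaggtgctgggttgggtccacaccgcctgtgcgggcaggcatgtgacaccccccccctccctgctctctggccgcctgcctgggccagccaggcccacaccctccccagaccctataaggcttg
Plin5 (chr17:56117597-56117798, minus strand): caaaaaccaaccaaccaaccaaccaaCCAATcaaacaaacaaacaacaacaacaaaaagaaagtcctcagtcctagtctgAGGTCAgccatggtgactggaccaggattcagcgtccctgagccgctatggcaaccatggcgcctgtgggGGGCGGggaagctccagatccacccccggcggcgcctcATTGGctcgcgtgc

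The search covered the 250 bases before each RefSeq start, on both strands, for 8 of the 10 genes. Cidea and Dgat2 were not analysed in this way. The half-site AGGTCA stood upstream of 2 of the 8 genes, Plin2 (218 bases before the start) and Plin5 (170 bases), and in 14% of 32851 windows of the same length. A CCAAT box stood upstream of Plin2, Plin4, Plin5 and Pnpla3 (33.8% of all windows), with the match of Plin4 18 bases before the RefSeq start and so outside the letters printed. A GC box stood upstream of Cideb, Plin5, Pnpla2 and Pnpla3 (32.7% of all windows), and TATAAA upstream of Cideb (12.4%). A pair of half-sites 1 base apart (0.0335% of all windows), the E-box CACGTG (6.02%) and the sterol element TCACCCCAC (0.496%) were found upstream of 0 of the 8. Cidec and Mogat1 held none of these letters in their windows. A match is a description of letters, and it does not show a binding site.

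Levels are normalized counts, the read count of a gene divided by the size factor of its library, on 1 scale for all 12 libraries. A fold is the ratio of the means of 2 groups of 3. Rose and fell mean an adjusted p under 0.05 in the authors' deposited DESeq2 tables, with edgeR given as the second test. For vehicle against uninjected livers, the 1 comparison with counts of all genes, edgeR was the first test. Library totals ran from 7466378 counts (high-fat diet 38) to 38161486 (high-fat diet 4) among the 6 complete libraries, and were estimated at 11500000 to 35400000 for chow and PCN. Vehicle 55 stood apart on the first principal component of those 6 libraries (63.3, the others -28.3 to 11.4), and high-fat diet 38 on the second (53.3, the others -36.6 to 9.42). Vehicle 23 correlated across genes with the uninjected libraries at a mean r of 0.980, and with its own group at 0.971. An exact permutation test of 3 against 3 cannot go below p = 0.10.

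On the high-fat diet 4 of the 10 genes rose over chow: Cidea 29.3-fold, Cidec 7.26-fold, Mogat1 4.31-fold and Plin4 3.89-fold. The authors' deposited table called 4.85% of the genes tested in that comparison. By edgeR 1 of these 4, Cidea, passed, where 0.4% of all genes passed. The edgeR count was 0 without chow replicate 8, 17 or 19 or high-fat-diet replicate 4 or 38, and 2 (Cidea and Plin4) without high-fat-diet replicate 30. Of the same 1226 genes, those fits called 28, 8, 13, 2, 18 and 51, in that order.

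With PCN 5 of the 10 genes fell against uninjected high-fat-diet livers: Cidea 113-fold, Cidec 13.5-fold, Mogat1 6.13-fold, Plin4 2.78-fold and Plin2 1.59-fold. The authors' deposited table called 3.15% of all genes there. Cidea, Cidec and Mogat1 also passed edgeR, as did 135 of the 809 genes called by the authors, or 0.526% of the 25658 they tested. The edgeR count of these genes was 0 without high-fat-diet replicate 4 or PCN replicate 27 and 1, Mogat1, without PCN replicate 5. Of the same 809 genes, those fits called 0, 0 and 19, in that order. In this comparison the injection and the compound cannot be told apart.

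With both groups injected, 2 of the 10 genes fell with PCN against vehicle, Cidea 26.7-fold and Plin4 1.55-fold, where the authors' deposited table called 1.71% of all genes. Of these 2, 0 passed edgeR, which called 15 of the 442 genes called by the authors, or 0.058% of the 25880 they tested. Of the 7 genes with counts, 4 had an unadjusted edgeR p under 0.05. PCN counts were at hand only for genes called in some comparison, so this count has no share over all genes beside it. Vehicle and uninjected livers differed as well. Cidec was 6.45-fold, Cidea 4.23-fold and Mogat1 2.97-fold lower with vehicle, and these 3 were the members past the authors' deposited DESeq2 test, which called 0.792% of all genes. Of the 10 genes 0 passed edgeR, and 0.00726% of the 13775 genes kept by its filter did. An unadjusted edgeR p under 0.05 was met by 6 of the 10 and by 1725 of these 13775 genes. A DESeq2 refit and edgeR without an expression filter each called 4, adding Plin2. The libraries of the 2 groups did not overlap for 6 of the 10 genes, Cidea, Cidec, Plin2, Plin4, Mogat1 and Pnpla2, all lower with vehicle, against 19.7% of the 13775 genes kept by the edgeR filter. The median log2 change of the 9 members kept by that filter was -0.84 and 7 of the 9 were below 0, while the median of all 13775 genes was 0.02 and 47.5% were below 0. Among these 7, Plin5 stood at -0.01 ± 0.39 (SE, edgeR), with no clear direction. The 10 genes were chosen with earlier results of these data known.

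Against chow 2 of the 10 genes were called with vehicle and 3 with PCN. With vehicle Plin4 rose 2.18-fold over chow and Plin2 fell 1.73-fold, and the authors' deposited table called 3.1% of all genes. With PCN Dgat2 rose 1.53-fold over chow while Plin5 fell 2.64-fold and Plin2 1.46-fold, and the authors' deposited table called 8.1% of all genes. By edgeR 0 of these called genes passed in either comparison. Of the genes called by the authors, 90 of 790 with vehicle and 775 of 2032 with PCN passed, or 0.353% and 3.09% of all they tested. Of the 7 genes with counts, 3 with vehicle and 4 with PCN had an unadjusted edgeR p under 0.05. Chow and PCN counts were at hand only for genes called in some comparison, so no share over all genes stands beside these counts. The comparisons share libraries, so their values are given side by side and are not independent.

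**Figure D1:**
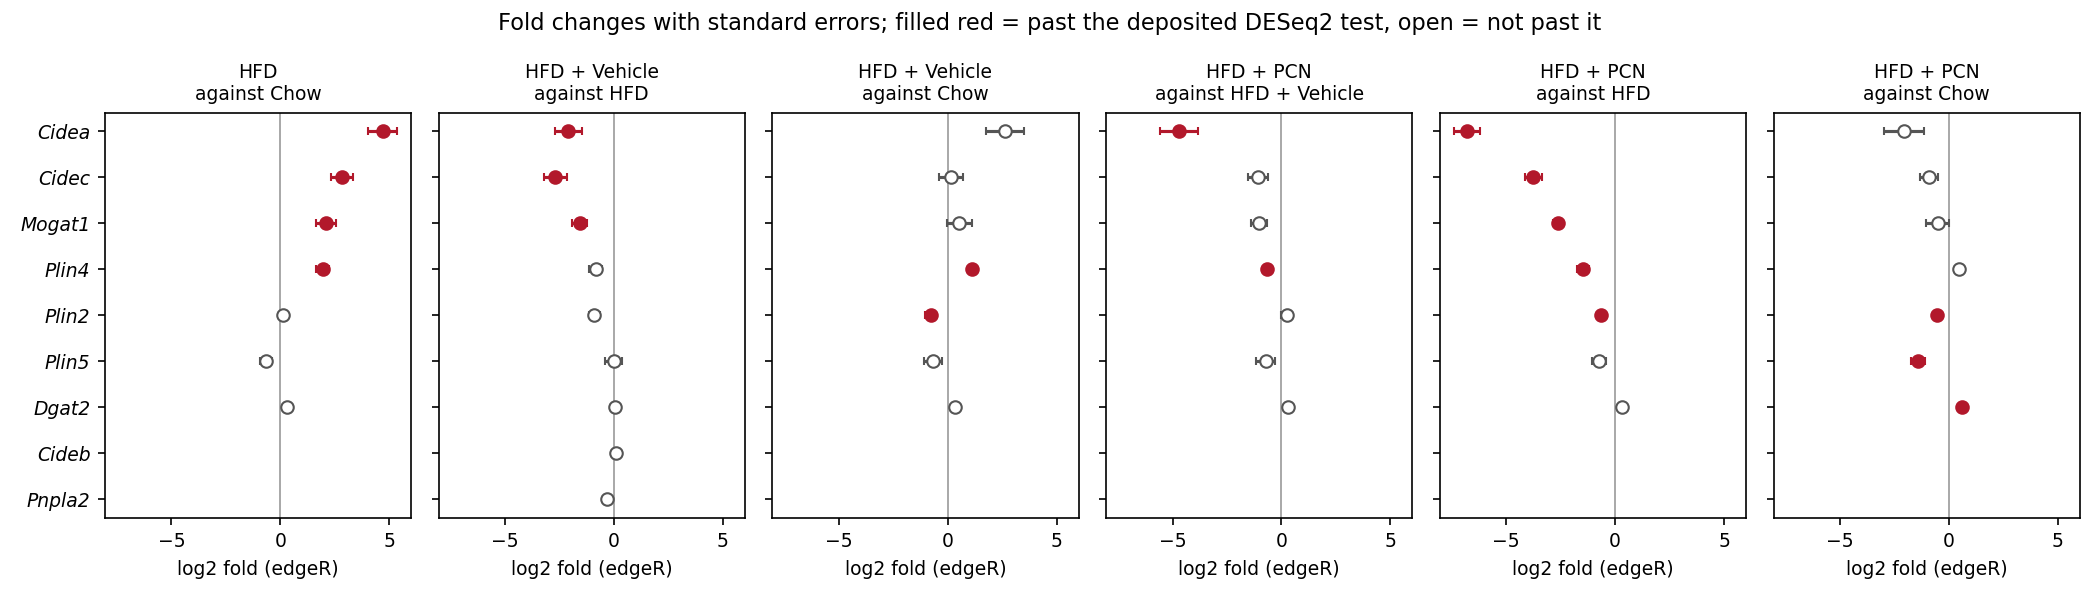
Log2 fold change (edgeR, x axis) with its standard error for 9 genes (rows) in the 6 comparisons (panels), with filled red points past the authors' deposited DESeq2 test. Cidea, Cidec, Mogat1 and Plin4 lie right of 0 for high-fat diet against chow and left of 0 for PCN against high-fat diet, and Cideb and Pnpla2 have a point only for vehicle against high-fat diet.

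Among the CIDE genes, Cidea encodes a droplet fusion protein best known from brown fat. It (ENSMUSG00000024526) lies on the plus strand of chromosome 18, at 67343604 to 67367785 in the GENCODE annotation of GRCm38. Its normalized counts were 11.5, 1.3 and 2.3 in chow libraries 8, 17 and 19, and 212, 71.5 and 157 in high-fat-diet libraries 4, 30 and 38. They were 7.7, 50.4 and 45.7 in vehicle libraries 15, 23 and 55, and 1.1, 1.7 and 1.1 in PCN libraries 5, 11 and 27. All 3 uninjected high-fat-diet libraries lay above every other library, and the PCN libraries were all at 1.7 or below. PCN overlapped chow, and vehicle replicate 15 lay inside the chow range.

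The group means of Cidea were 5.0 ± 5.6 in chow, 147 ± 70.6 on the high-fat diet, 34.6 ± 23.4 with vehicle and 1.3 ± 0.36 with PCN (SD, n = 3). The rise on the diet had a log2 change of 2.58 ± 0.31 (SE) in the authors' deposited table, which shrinks changes toward 0, and passed edgeR (adjusted p = 0.0421). Without chow replicate 8 the ratio was 82.5-fold. The PCN libraries held 4 Cidea reads in all, against 573 in the high-fat-diet and 102 in the vehicle libraries. From these pooled reads and the size factors, the level was 132 times as high on the uninjected high-fat diet as with PCN, and 28.3 times as high with vehicle as with PCN. The exact 95% limits (Clopper-Pearson), which hold counting error alone, were 51.1 and 485 for the first ratio and 10.7 and 106 for the second. The chow libraries held 16 Cidea reads. The adjusted p of PCN against high-fat diet was 0.00984 in edgeR, and that of PCN against vehicle was 0.178 in edgeR and 0.000506 in the authors' deposited table. In bulk liver, fewer cells that express a gene and less RNA per cell cannot be told apart.

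Cidec encodes the CIDE protein that drives the growth of large droplets in white fat and in fatty liver. The gene (ENSMUSG00000030278) spans 113424634 to 113435760 on the minus strand of chromosome 6. Chow libraries 8, 17 and 19 had 499, 316 and 144 normalized counts, and high-fat-diet libraries 4, 30 and 38 had 2326, 1229 and 3409.7. Vehicle libraries 15, 23 and 55 had 134, 506 and 441, and PCN libraries 5, 11 and 27 had 129, 175 and 211. The uninjected high-fat-diet group stood clear of the other 3 groups, which overlapped each other.

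Cidec averaged 320 ± 177 in chow, 2322 ± 1090 on the high-fat diet, 360 ± 199 with vehicle and 172 ± 41.0 with PCN (SD, n = 3). The adjusted p of the rise on the diet was 0.000391 in the authors' deposited table and 0.0691 in edgeR. The lower level with vehicle than without injection had adjusted p = 0.0199 in the authors' deposited table and 0.162 in edgeR. The fall between high-fat diet and PCN had adjusted p = 0.0142 in edgeR. Vehicle and chow differed 1.13-fold in Cidec, with overlapping libraries (log2 change 0.16 ± 0.54 SE, edgeR), and that direction reversed without chow replicate 19 or vehicle replicate 23. Cidea reads were 4.59% to 9.09% of Cidec reads on the uninjected high-fat diet and 5.76% to 10.4% with vehicle, against 0.412% to 2.30% in chow and 0.503% to 0.980% with PCN. PCN and vehicle differed 2.10-fold in Cidec with overlap, at an unadjusted edgeR p of 0.0423.

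Cideb, the CIDE gene of normal hepatocytes, which also acts in the lipid loading of lipoproteins, had overlapping levels with and without vehicle. The gene (ENSMUSG00000022219) lies at 55754050 to 55758458 on the minus strand of chromosome 14. Its normalized counts were 1784, 2091 and 1302 in high-fat-diet libraries 4, 30 and 38 and 1572, 1736 and 2198 in vehicle libraries 15, 23 and 55. The libraries overlapped, with a log2 change of 0.09 ± 0.20 (SE, edgeR adjusted p = 0.873). Of its 1488 exonic bases 1136 also lie in exons of the opposite-strand gene Nop9, and with the strand setting of the counting not stated, reads of the 2 genes may not have been told apart. Per library, Cidec had 0.588 to 2.62 reads per Cideb read on the high-fat diet and 0.0852 to 0.292 with vehicle.

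**Figure D2:**
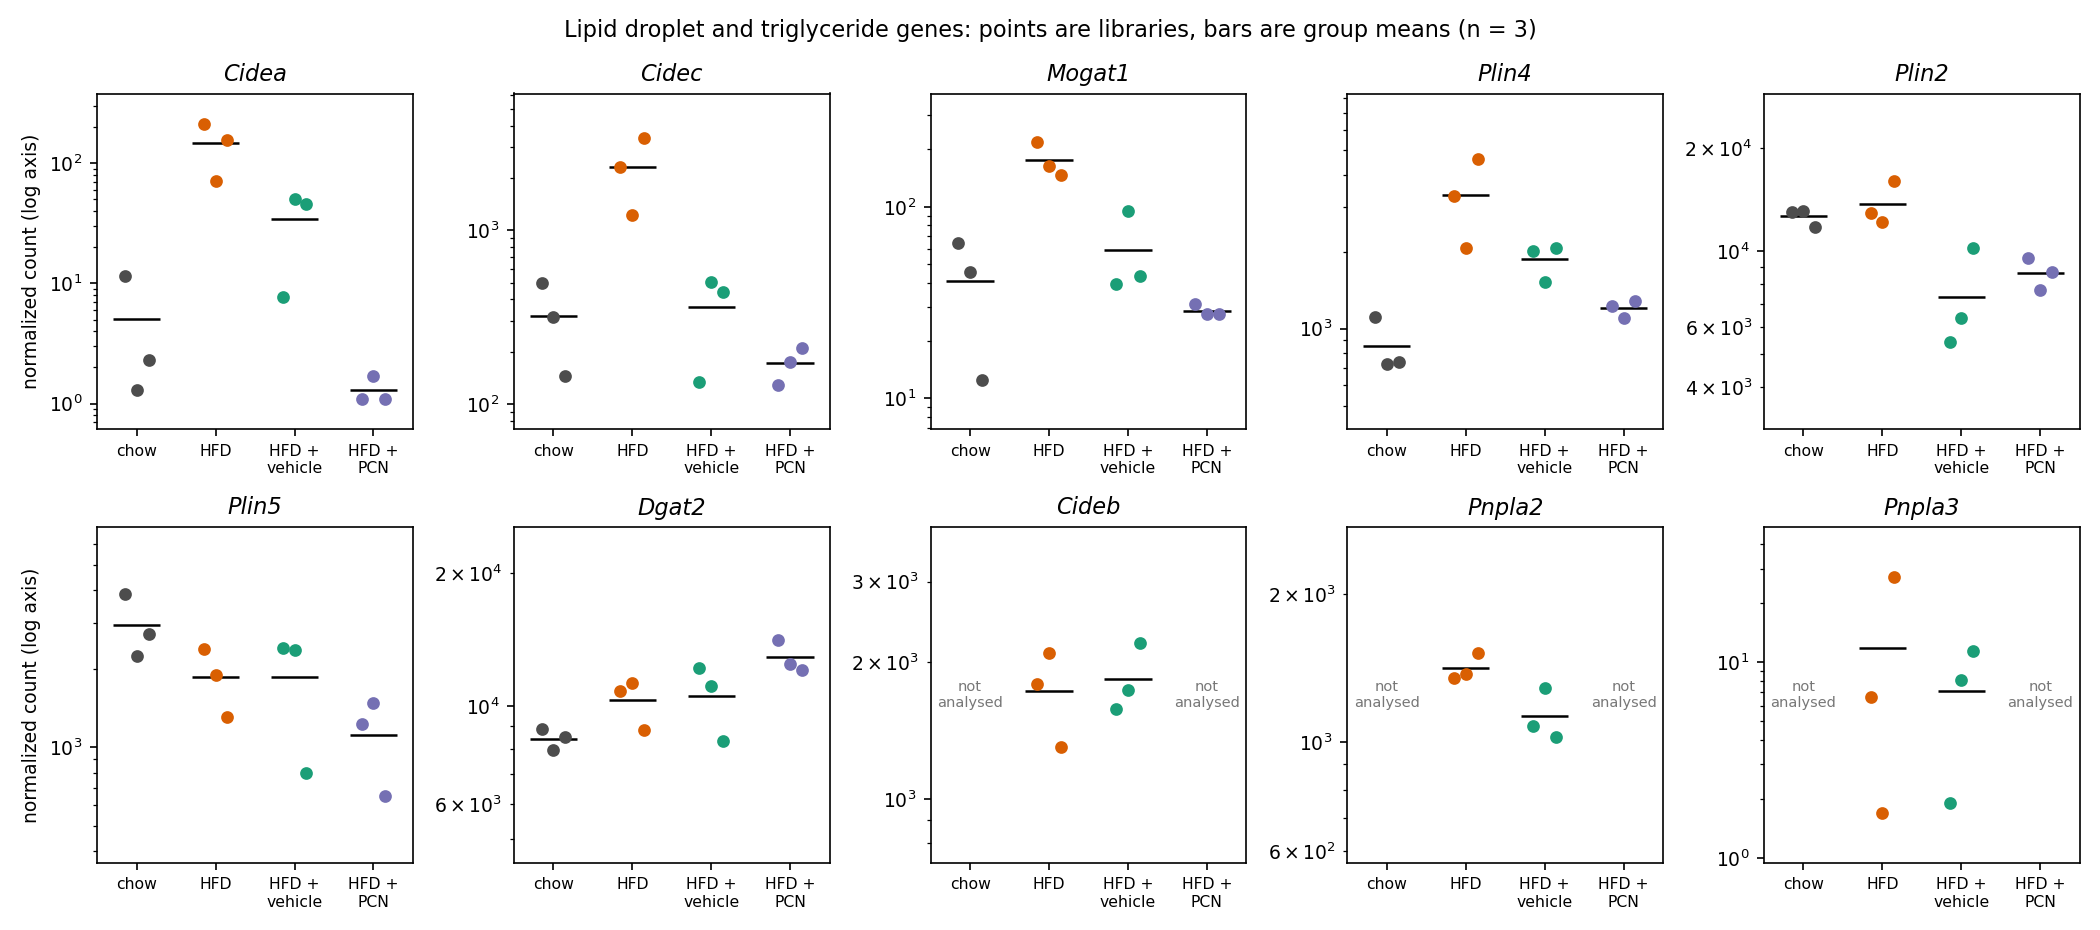
Normalized counts (log axis) of the 10 genes in each library, with points for libraries and bars for the means of 3. Cidea, Cidec and Mogat1 are highest in the 3 uninjected high-fat-diet libraries, Dgat2 has its highest mean with PCN, and Cideb, Pnpla2 and Pnpla3 are shown for high-fat diet and vehicle alone.

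Of the perilipins, Plin2 encodes the general droplet coat of hepatocytes, whose protein is stabilised by bound lipid. It (ENSMUSG00000028494) spans 86648386 to 86670060 on the minus strand of chromosome 4. Chow libraries 8, 17 and 19 had 13043, 13117 and 11780.1 normalized counts, and high-fat-diet libraries 4, 30 and 38 had 12912, 12134 and 16057. Counts were lower after injection, and vehicle libraries 15, 23 and 55 had 5424, 6356 and 10190.2, and PCN libraries 5, 11 and 27 had 9540.4, 7708 and 8675. The injected libraries all lay below the uninjected ones, on either diet, and vehicle replicate 55 was the highest of the 6.

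Mean Plin2 was 12646 ± 751 in chow and 13701 ± 2077 on the high-fat diet (SD, n = 3), a 1.08-fold difference with overlapping libraries that reversed without high-fat-diet replicate 38. It was 7323 ± 2526 with vehicle and 8641 ± 916 with PCN, which overlapped. In the authors' deposited tables the adjusted p against chow was 0.0191 with vehicle and 0.00162 with PCN, and 0.00522 between PCN and uninjected high-fat diet. Between vehicle and uninjected livers it was 0.0515 in the authors' deposited table and 0.271 in edgeR. Cidec reads made up 10.1% to 21.2% of Plin2 reads in the high-fat-diet libraries and 1.22% to 7.96% in the other 9.

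Plin4 encodes a coat protein of nascent droplets with a long run of repeats, best known from white fat. The gene (ENSMUSG00000002831) spans 56100591 to 56109803 on the minus strand of chromosome 17, and 17 of its exonic bases overlap the opposite-strand gene Hdgfl2. Chow libraries 8, 17 and 19 had 1108, 727 and 740.2 normalized counts, and high-fat-diet libraries 4, 30 and 38 had 3310.2, 2065 and 4633. Vehicle libraries 15, 23 and 55 had 2018, 1522 and 2064, and PCN libraries 5, 11 and 27 had 1226, 1098 and 1283. The 4 groups fell in the order high-fat diet, vehicle, PCN and chow, with overlap between PCN and chow alone and a narrow gap between high-fat diet 30 and vehicle 55.

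Plin4 averaged 859 ± 216 in chow, 3336 ± 1284 on the high-fat diet, 1868 ± 301 with vehicle and 1202 ± 94.7 with PCN (SD, n = 3). The authors' deposited tables gave a log2 change of 1.64 ± 0.23 (SE) on the diet and 1.03 ± 0.20 for vehicle against chow. Adjusted p in edgeR was 0.052 and 0.080 in these comparisons. The fall between vehicle and PCN had adjusted p = 0.0391 in the authors' deposited table and 0.25 in edgeR. Between vehicle and uninjected livers Plin4 was not past either test (log2 change -0.84 ± 0.29 SE, adjusted p = 0.327, edgeR).

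Plin5 encodes the perilipin that ties droplets to mitochondria in tissues that burn fat. The gene (ENSMUSG00000011305) spans 56111601 to 56117596 on the minus strand of chromosome 17, next to Plin4. Chow libraries 8, 17 and 19 had 3884, 2235 and 2721 normalized counts, and high-fat-diet libraries 4, 30 and 38 had 2381, 1902 and 1311. With vehicle, libraries 15, 23 and 55 had 2399, 2363 and 800.2, and PCN libraries 5, 11 and 27 had 1224, 1479 and 650.4. High-fat diet 38, vehicle 55 and PCN 27 were each the lowest of their group, and vehicle 55 lay well below the other vehicle libraries.

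Plin5 means were 2946 ± 847 in chow, 1865 ± 536 on the high-fat diet, 1854 ± 913 with vehicle and 1118 ± 424 with PCN (SD, n = 3). The fall between chow and PCN was the 1 call, with a log2 change of -1.25 ± 0.24 (SE) in the authors' deposited table and an adjusted p of 0.0608 in edgeR. On the high-fat diet Plin5 was 1.58-fold lower than in chow with overlapping libraries, at an unadjusted edgeR p of 0.0388. Vehicle and uninjected livers had a log2 change of -0.01 ± 0.39 (SE, edgeR), with no call.

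The ratio of the neighbours Plin4 and Plin5 was higher in every high-fat-diet library than in chow. Per library there were 0.272 to 0.325 Plin4 reads for each Plin5 read in chow and 1.09 to 3.53 on the high-fat diet, with no overlap. The ratio was 0.644 to 2.58 with vehicle and 0.742 to 1.97 with PCN, above chow in all 6 libraries. Its mean was 0.294 ± 0.0278 in chow, 2.0 ± 1.33 on the high-fat diet, 1.35 ± 1.07 with vehicle and 1.24 ± 0.648 with PCN (SD, n = 3). Among the 3 high-fat groups the ratio overlapped. High-fat diet 38, vehicle 55 and PCN 27, the libraries with the least Plin5, had the highest ratio of their groups.

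**Figure D3:**
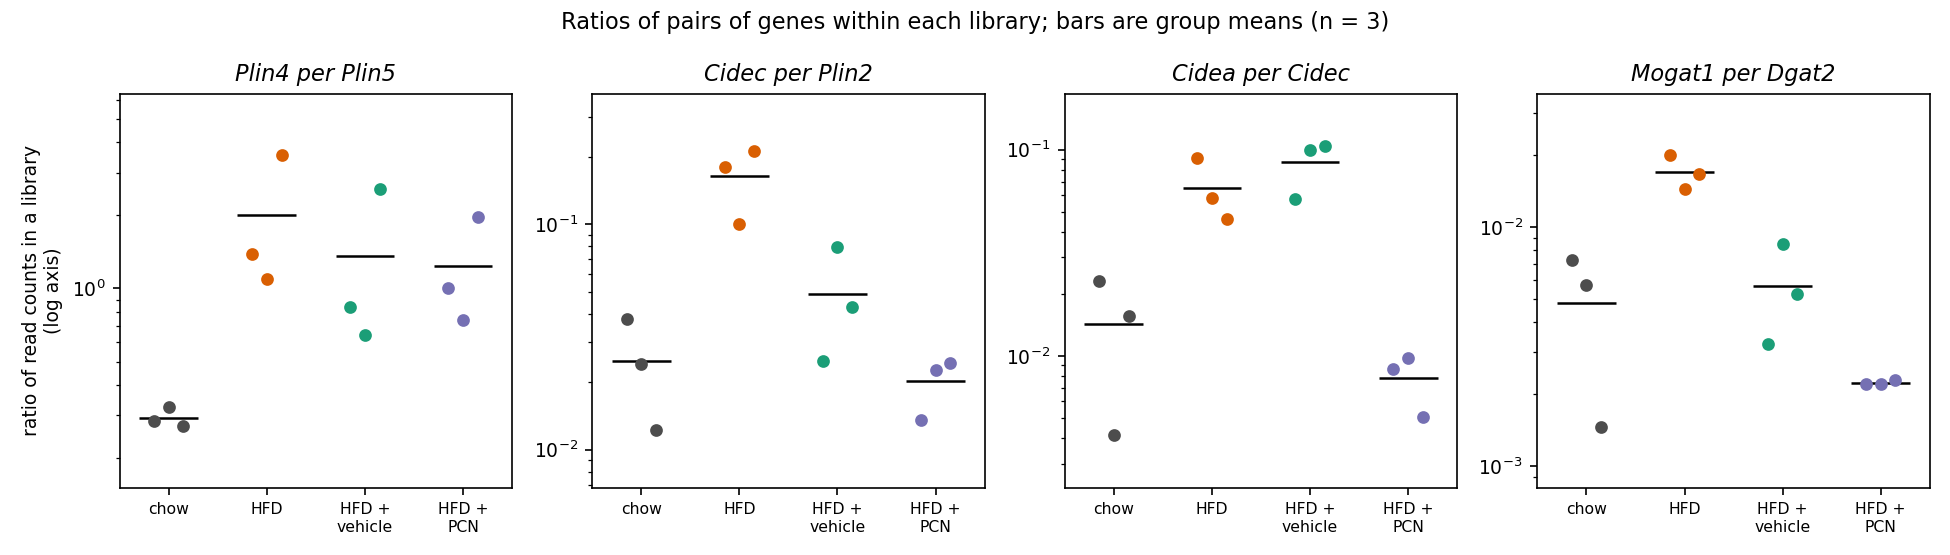
Ratio of the read counts of 2 genes within each library (log axis) for 4 pairs, with bars for the means of 3. Plin4 per Plin5 is 0.272 to 0.325 in chow and 0.644 or more in the other 9 libraries, and Cidea per Cidec is lowest in mean with PCN.

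Of the enzymes of triglyceride synthesis, Mogat1 encodes a monoacylglycerol acyltransferase that makes diacylglycerol and is low in normal liver. The gene (ENSMUSG00000012187) spans 78510991 to 78538173 on the plus strand of chromosome 1, and 200 of its exonic bases overlap the opposite-strand gene BC035947. Chow libraries 8, 17 and 19 had 64.4, 45.5 and 12.4 normalized counts, and high-fat-diet libraries 4, 30 and 38 had 217, 163 and 148. After vehicle, libraries 15, 23 and 55 had 39.5, 94.7 and 43.6, and PCN libraries 5, 11 and 27 had 31.1, 27.4 and 27.5. The uninjected high-fat-diet libraries stood above all others, and the PCN libraries lay inside the chow range and below every vehicle library.

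Mogat1 averaged 40.8 ± 26.3 in chow, 176 ± 36.6 on the high-fat diet, 59.3 ± 30.8 with vehicle and 28.7 ± 2.1 with PCN (SD, n = 3). On the diet the adjusted p was 0.000112 in the authors' deposited table and 0.121 in edgeR. The fall between high-fat diet and PCN (log2 change -2.61 ± 0.23 SE) had an adjusted p of 0.00843 in edgeR. It was the lowest of the 5 genes past the deposited test there. Between vehicle and uninjected livers the adjusted p was 0.00465 in the authors' deposited table and 0.184 in edgeR. PCN was 2.07-fold below vehicle without a call, at an unadjusted edgeR p of 0.0285.

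Dgat2 encodes the acyltransferase that closes the last step to triglyceride at the surface of droplets. The gene (ENSMUSG00000030747) spans 99153658 to 99182719 on the minus strand of chromosome 7. In chow, libraries 8, 17 and 19 had 8869, 7948 and 8504 normalized counts, and high-fat-diet libraries 4, 30 and 38 had 10809.8, 11294 and 8809. Vehicle libraries 15, 23 and 55 had 12232, 11105 and 8345, and PCN libraries 5, 11 and 27 had 14148, 12443 and 12092. PCN libraries were all above chow and above uninjected high-fat-diet libraries, and overlapped vehicle.

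Dgat2 means were 8440.0 ± 464 in chow, 10304 ± 1317 on the high-fat diet, 10560.0 ± 2000.0 with vehicle and 12894 ± 1100 with PCN (SD, n = 3). The rise of PCN over chow had adjusted p = 0.000109 in the authors' deposited table and 0.0689 in edgeR. Of the 7 genes with counts in all groups it was the 1 whose mean was highest with PCN. Vehicle and uninjected livers differed by a log2 change of 0.03 ± 0.18 (SE, edgeR) that reversed under some alternatives. Mogat1 reads were 1.44% to 2.01% of Dgat2 reads on the uninjected high-fat diet. They were 0.146% to 0.726% in chow, 0.323% to 0.853% with vehicle and 0.220% to 0.228% with PCN.

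Of the lipases, Pnpla2 encodes ATGL, which removes the first fatty acid from stored triglyceride. The gene (ENSMUSG00000025509) spans 141455198 to 141460743 on the plus strand of chromosome 7. High-fat-diet libraries 4, 30 and 38 had 1350.4, 1372 and 1520.0 normalized counts and vehicle libraries 15, 23 and 55 had 1079, 1288 and 1023. All 3 vehicle libraries were below the uninjected ones, at a mean of 1129.8 ± 139.9 against 1414 ± 92.2 (SD, n = 3). The difference of 1.25-fold was not past either test (adjusted p = 0.377, edgeR). Plin2 had 8.84 to 10.6 reads per Pnpla2 read on the high-fat diet and 4.93 to 9.97 with vehicle, with overlap.

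Pnpla3 encodes a droplet-bound relative of ATGL whose human form is known for a variant that favours fatty liver. The gene (ENSMUSG00000041653) spans 84167837 to 84187236 on the plus strand of chromosome 15, and 105 of its exonic bases are shared with Gm49513 on the same strand. Raw reads were 13, 2 and 12 in high-fat-diet libraries 4, 30 and 38 and 2, 8 and 11 in vehicle libraries 15, 23 and 55. At these counts the gene did not pass the edgeR filter. Normalized counts were 11.8 ± 13.6 without and 7.1 ± 4.8 with vehicle (SD, n = 3), and the direction reversed without high-fat-diet replicate 38 (vehicle then 1.73-fold higher). A difference was not detectable at this depth.

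Levels between genes were compared per kb of exon in the annotation, and on that scale the order of the genes changed with the group. In chow Plin2 (3601 ± 214 normalized counts per kb) stood first, before Dgat2 (2738 ± 150), Plin5 (1412 ± 406), Cidec (172 ± 95.5), Plin4 (149 ± 37.5), Mogat1 (26.2 ± 16.9) and Cidea (4.49 ± 5.04; SD, n = 3). Cidec and Plin4 overlapped there, and so did Mogat1 and Cidea. On the uninjected high-fat diet Cidec was the third of 10 at 1251 ± 587 per kb, after Plin2 (3901 ± 591) and Dgat2 (3342 ± 427), which overlapped each other. Cidec overlapped Cideb (1160 ± 267 per kb), and Cideb overlapped Plin5 (893 ± 257), Plin5 overlapped Plin4 (577 ± 222) and Plin4 overlapped Pnpla2 (468 ± 30.5).

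Cidea (131 ± 63.3 per kb) and Mogat1 (113 ± 23.5) overlapped further down on the high-fat diet, and Pnpla3 was last (7.64 ± 8.76; SD, n = 3). With vehicle Dgat2 (3425 ± 649 per kb) was first and overlapped Plin2 (2085 ± 719), and Cidec stood at 194 ± 107, the seventh of 10. With PCN no neighbours in the order overlapped: Dgat2 (4182 ± 357 per kb), Plin2 (2460.0 ± 261), Plin5 (536 ± 203), Plin4 (208 ± 16.4), Cidec (92.4 ± 22.1), Mogat1 (18.4 ± 1.35) and Cidea (1.16 ± 0.327). The order compares 7 genes in chow and PCN and 10 in the other groups.

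**Figure D4:**
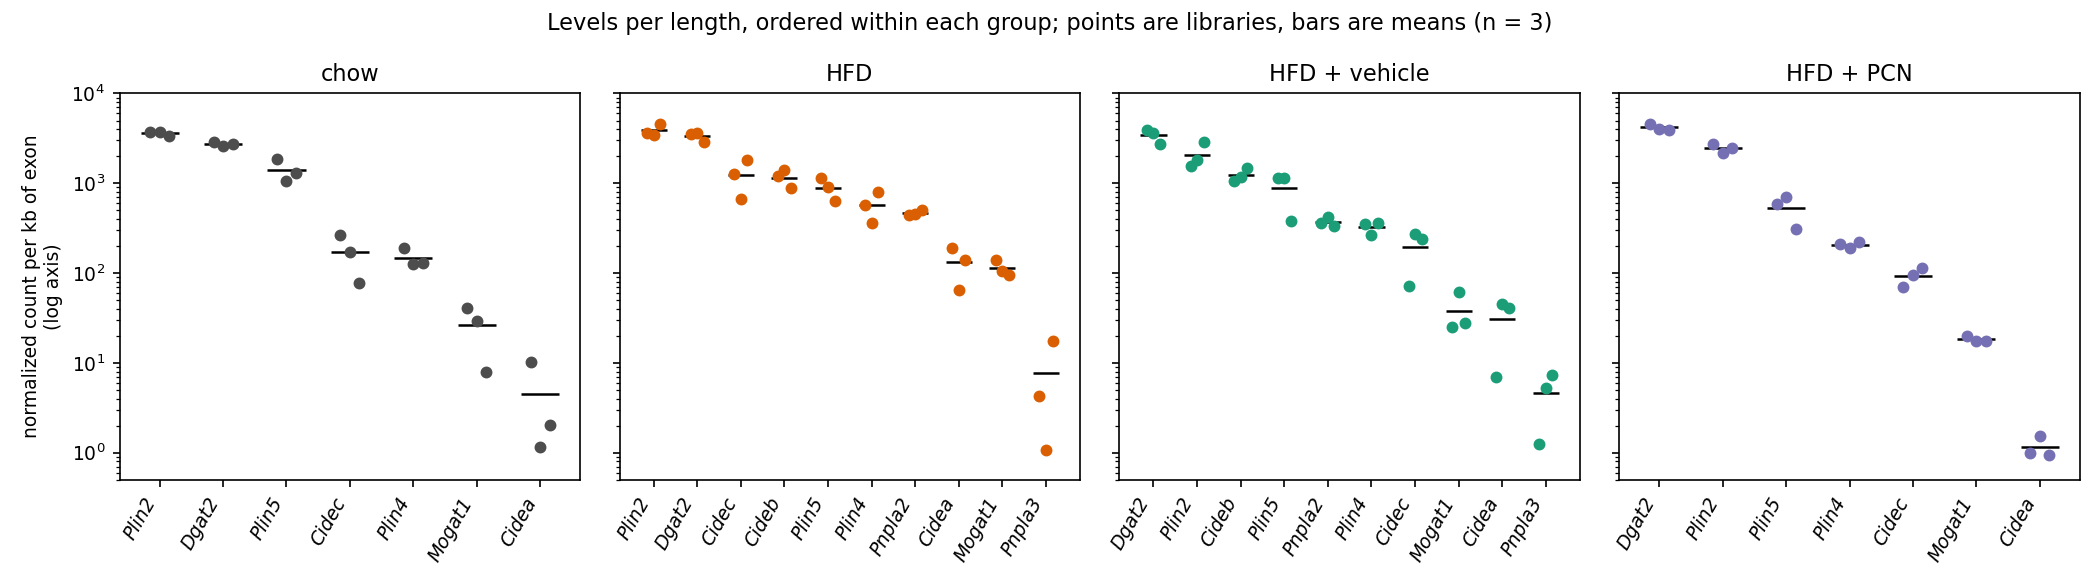
Normalized counts per kb of exon (log axis) with genes in the order of their group mean, 1 panel per group, points for libraries and bars for the means of 3. Cidec is the third gene on the uninjected high-fat diet (1251 per kb) and the fifth of 7 with PCN (92.4 per kb), while Plin2 and Dgat2 hold the top 2 places in all 4 panels.

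Other genes of the pathway were described from 5 lists, chosen with earlier results of these data known. Of 14 other droplet proteins Plin3, a perilipin that moves between cytosol and droplet, rose on the diet 1.88-fold, and Ldah, a droplet-associated hydrolase, fell 1.31-fold. Plin3 stood at 671 ± 49.6 normalized counts in chow, 1260.0 ± 281 on the high-fat diet and 914 ± 143 with vehicle. With PCN against chow Plin3 rose 2.10-fold and Hsd17b13, a droplet enzyme of hepatocytes, 1.44-fold, and Ldah fell 1.42-fold. G0s2, the protein inhibitor of ATGL, fell 2.49-fold with PCN against uninjected livers, and it was 2.68-fold lower with vehicle (adjusted p = 0.0071 in the authors' deposited table and 0.237 in edgeR). Its libraries held 1093 to 3060 normalized counts without injection and 627 to 932 with either injection. Between PCN and vehicle the authors' deposited table called 0 of the 14.

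Of 14 other triglyceride synthesis enzymes 2 rose with PCN against vehicle and 0 fell: Mogat2 33.7-fold and Gpam 1.56-fold. Mogat2 encodes the intestinal relative of Mogat1. It had 1.8, 0.0 and 0.0 normalized counts in chow libraries 8, 17 and 19, and 5.6, 8.3 and 6.8 in high-fat-diet libraries 4, 30 and 38. Mogat2 had 2.9, 2.0 and 1.0 in vehicle libraries 15, 23 and 55 (1 to 3 reads each) and PCN libraries 5, 11 and 27 had 82.3, 24.0 and 94.3. All PCN libraries were above all others, the opposite direction to Mogat1. The adjusted p of Mogat2 against vehicle was 3.15e-09 in the authors' deposited table and 0.0779 in edgeR, and against uninjected livers, 9.70-fold, 5.99e-07 in the authors' deposited table and 0.0567 in edgeR.

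Gpam encodes the mitochondrial acyltransferase of the first step of glycerolipid synthesis. It stood at 4117 to 4892 normalized counts with vehicle and at 6652 to 7120.4 with PCN. On the diet Gpat3 and Agpat1, acyltransferases of the first and second step, rose 2.31-fold and 1.78-fold over chow, and 0 of the 14 fell. Both also rose with vehicle against chow (2.24-fold and 2.05-fold). With PCN against chow 4 of the 14 rose, among them Mogat2, Gpat3 (2.65-fold) and Agpat1 (2.01-fold), and 3 fell, with Gpat4, the ER enzyme of the first step, 1.92-fold lower. Between vehicle and uninjected livers the authors' deposited table called 0 of the 14.

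**Figure D5:**
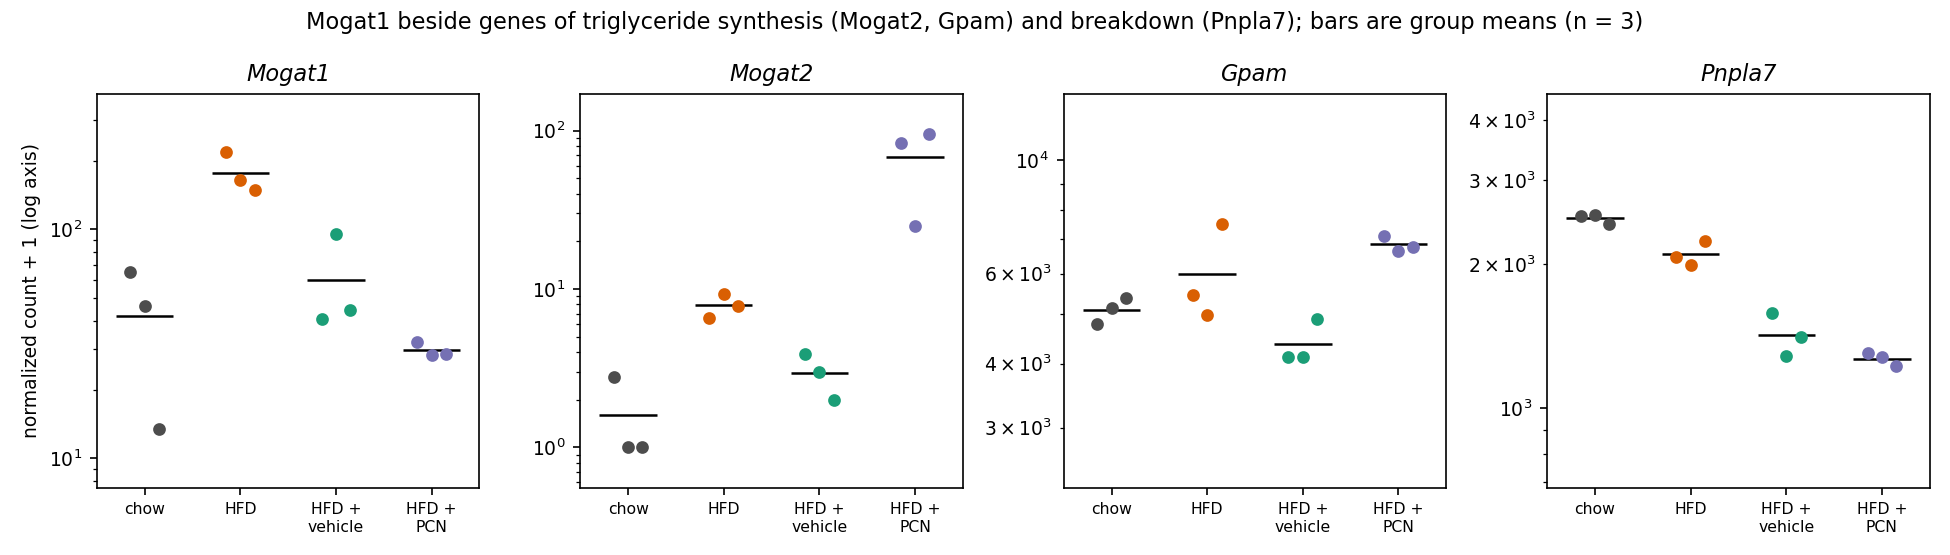
Normalized counts + 1 (log axis) of Mogat1, Mogat2, Gpam and Pnpla7 in each library, with bars for the means of 3. Mogat1 is highest in the uninjected high-fat-diet libraries and Mogat2 in the PCN libraries (24.0 to 94.3 counts), and Pnpla7 is lower in both injected groups than in the uninjected ones.

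Of 11 other lipases and breakdown enzymes, 3 fell and 0 rose with PCN against uninjected high-fat-diet livers. They were Mgll, the monoacylglycerol lipase of the last step (2.04-fold), Pnpla7, a lysophospholipase (1.66-fold), and Ddhd2, a triglyceride hydrolase best known from neurons (1.65-fold). Pnpla7 passed edgeR as well (adjusted p = 0.0421), with 1989 to 2235 normalized counts without injection and 1224 to 1299.5 with PCN. With vehicle its counts were 1282 to 1579.5, 1.47-fold lower than uninjected (adjusted p = 0.0493 in the authors' deposited table and 0.205 in edgeR). Against chow 4 fell and 0 rose both with vehicle (Lipc, Pnpla7, Mgll and Lipa) and with PCN (Mgll, Lipc, Pnpla7 and Ddhd2). On the diet Lpl and Lipe, the lipoprotein and hormone-sensitive lipases, rose 2.13-fold and 1.45-fold over chow, and Lipc, the hepatic lipase, fell 1.91-fold. Between PCN and vehicle the authors' deposited table called 0 of the 11.

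Of 7 genes that activate fatty acids for esterification or oxidation, 3 fell on the diet: Acsl1 (1.59-fold), Slc27a5 (1.44-fold) and Acsl5 (1.23-fold). Of these 3, 0 passed edgeR (adjusted p from 0.403 to 0.952). Acsl1 had 60660 to 62383 normalized counts in chow, 28362 to 46252 on the high-fat diet and 19374 to 27244 with PCN. With PCN Acsl3, the synthetase of nascent droplets, rose 3.07-fold over chow and 2.89-fold over uninjected high-fat-diet livers, while Acsl1 and Slc27a2 fell against chow. Of 7 transcription factors that act on droplet genes, Srebf1, the lipogenic SREBP gene, rose 2.85-fold on the diet, 3.41-fold with vehicle and 2.53-fold with PCN over chow. Mlxipl and Nr1i2, the latter encoding the pregnane X receptor, rose over chow with vehicle (2.0-fold and 1.46-fold) and Pparg rose with PCN (1.95-fold). With vehicle against chow 2 of the 7 activation genes fell, Acsl1 and Acsl5 (both 1.66-fold). Over the 5 lists the authors' deposited tables made 11, 2, 11, 2, 6 and 19 calls, and 1, 0, 2, 0, 1 and 7 of them held in edgeR. The counts are in the order diet against chow, vehicle against uninjected, vehicle against chow, PCN against vehicle, PCN against uninjected and PCN against chow. Those that held were Srebf1 on the diet, Srebf1 and Pnpla7 with vehicle against chow, and Pnpla7 with PCN against uninjected livers. With PCN against chow they were Plin3, Gpat4, Mogat2, Mgll, Pnpla7, Acsl1 and Acsl3.

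Several members are also fat tissue genes, so markers of other cell types were set beside them. Of 10 adipocyte markers 9 had counts in the complete libraries. Adipoq (0.0 to 1.0), Plin1 (0.0 to 3.1), Retn (0.0 to 1.5) and Ucp1 (0.0 to 1.5 normalized counts) were at or near 0 there. Slc2a4 had a mean of 7.8 without and 4.0 with vehicle, and Adrb3 was higher in mean with vehicle (20.8 without and 43.6 with). The summed adipocyte list was 927.5 to 1020.0 in uninjected and 528 to 765 in vehicle libraries, which did not overlap, and its sum was made up mainly of Lipe, Fabp4 and Cfd. Fabp4, a fatty acid carrier of adipocytes and macrophages, rose 3.78-fold on the diet (adjusted p = 0.0421, edgeR). Against uninjected livers its vehicle level was 2.50-fold lower, with adjusted p = 0.001 in the authors' deposited table and 0.16 in edgeR. Cfd (adipsin) fell 33.2-fold with PCN against vehicle, from 131 ± 73.3 to 3.9 ± 2.9 (SD, n = 3), with adjusted p = 7.63e-15 in the authors' deposited table and 0.0555 in edgeR. Of the 10, 2 rose on the diet (Fabp4 and Lipe) and 2 fell with PCN against uninjected livers (Cfd and Fabp4, both past edgeR as well).

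Between vehicle and uninjected livers the stellate cell list, whose cells also store droplets, summed to 9628 to 11230.0 normalized counts without injection and 6485 to 9187 with vehicle, again without overlap, and the authors' deposited table called 0 of its 8 genes. The largest levels in that sum were those of Reln (mean 4319 without and 2912 with vehicle) and Dcn (2895 and 1910). Ecm1 alone of the list had a higher mean with vehicle (1104 and 1165). The endothelial list overlapped in its sum (4953 to 5535 against 3482 to 5444), but Cdh5, the endothelial cadherin gene, was 1.73-fold lower with vehicle. Cdh5 had 729 to 785 normalized counts without and 336 to 502 with vehicle, with adjusted p = 0.0164 in the authors' deposited table and 0.162 in edgeR. Pecam1, another endothelial gene of the list, did not overlap either (471 to 735 against 286 to 403) and was not called in the authors' deposited table. The rest of the list, Stab2, Kdr and Clec4g, overlapped. Stab2 was lower in mean with vehicle (2184 against 2559), and Kdr (913 against 765) and Clec4g (599 against 587) were higher. The macrophage, hepatocyte and cholangiocyte lists overlapped in their sums, and the authors' deposited table called 0 of their genes there.

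On the diet the authors' deposited table had 2 of 8 stellate (Col1a1 and Pdgfrb), 4 of 8 macrophage (Adgre1, C1qa, C1qb and Vsig4) and 1 of 5 cholangiocyte markers (Spp1) higher. It had 3 of 8 hepatocyte markers (Apoa1, Hnf4a and Serpina1a) and 1 of 5 endothelial markers (Kdr) lower. With the 2 adipocyte genes these are 13 calls, of which 2, Col1a1 and Fabp4, held in edgeR. With PCN against uninjected high-fat-diet livers Col1a1, a collagen gene, fell 2.29-fold, from 485 to 603 normalized counts to 177 to 283 (adjusted p = 0.0472, edgeR). There Ttr, the hepatocyte transthyretin gene, fell 1.86-fold and Serpina1a, of a multigene family, rose 1.58-fold in the authors' deposited table, with adjusted p = 0.157 and 0.445 in edgeR. With PCN against chow Alb, Hnf4a and Ttr fell in the authors' deposited table and 0 of these 3 passed edgeR (adjusted p from 0.0686 to 0.224). Of the 8 marker calls in that comparison 1 held in edgeR, Col1a1, which rose 3.82-fold (adjusted p = 0.0178). Between PCN and vehicle Cfd was the 1 marker of the 6 lists called in the authors' deposited table. Alb, the hepatocyte albumin gene, was at 764573 to 1420535 normalized counts in the 6 complete libraries. The part of other cell types in the levels of the 10 genes was not tested.

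For the 7 genes with counts in 12 libraries, the most like patterns were sought among 1954 genes by Pearson r of log2(normalized count + 1). These genes were called in some comparison, and the points share groups and size factors, so the values are descriptions. Cidea was most like Mtor (r = 0.925), Tmem189 (0.909) and Gal3st1 (0.896). Cidec was most like H2-Q1 (r = 0.94), Enc1 (0.922) and Mtor (0.899), and H2-Q1, of a gene family whose reads can be hard to assign, had 309 to 340 normalized counts on the uninjected high-fat diet and 46.2 to 186.5 in the other groups. Mogat1 was most like Gpc1 (r = 0.889), Slc22a29 (0.887) and Cd36 (0.873), of which Cd36 takes up fatty acids. Plin4 was most like Wfdc2 (r = 0.909), Trim7 (0.869) and Mtor (0.867), so Mtor stood among the 3 nearest genes of Cidea, Cidec and Plin4.

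Plin2 was most like Map4k4 (r = 0.896), Hdc (0.887) and 2010003K11Rik (0.835). Map4k4 and Hdc were lower in every injected library than in every uninjected one, while 2010003K11Rik with PCN (379 to 484 normalized counts) overlapped chow (406 to 459.8). Plin5 was most like Wbp1l (r = 0.959), Spg20 (0.948) and Serinc3 (0.947), whose means were highest in chow and lowest with PCN. Dgat2 was most like Bzw2 (r = 0.990), Smpd2 (0.955) and Prnp (0.939), whose means were lowest in chow and highest with PCN. Bzw2 stood at 118 to 132 normalized counts in chow and at 179 to 205 with PCN.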

How the data were processed

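Liver RNA of 12 samples was analysed from 6 pairwise tables. Reads were aligned with HISAT2, counted with HTSeq and compared with DESeq2 on GRCm38/mm10, per the submitters' processing notes. Their versions, the annotation and the strand setting are not given in the sources used here. Raw read counts per gene and library were deposited with the authors' DESeq2 mean, log2 fold change, p-value and adjusted p, per the file headers. The other values the authors deposited (means, log2 changes and p-values) were written with decimal commas. Only the table of vehicle against uninjected livers is complete (26015 genes), and the other 5 hold values where the deposited adjusted p was below 0.05. Counts of a library agreed between tables (13293 values compared, 0 differed).

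Size factors were recovered from the deposited means and put on 1 scale (largest difference 1%). The complete table was tested with edgeR 4.0.16 (quasi-likelihood, TMM, filterByExpr, Benjamini-Hochberg over the 13775 genes kept). For the other 5 the authors' deposited DESeq2 calls were used. Their listed genes were tested again in edgeR with the dispersion prior of the complete table, adjusted over the number of genes tested (25101 to 25880, recovered from the deposited p-values). DESeq2 1.42.0 gave the refit. All tests were two-sided, and scripts were tested on simulated data. Gene spans and exon lengths are from GENCODE M21 (GRCm38), where 95.7% of 25993 identifiers matched had the start and end of the tables. Cidea differs, with 67343564 to 67367794 in the tables. Totals of partly listed libraries were estimated from size factors, off by up to 16.3% where both were known. Intervals cover counting error only.

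The genes, lists and rules were chosen with earlier results of these data known. All 10 genes are named, with those list genes past a deposited test (at most 4 per list and comparison, by size) and the 3 genes most like each member (mean of at least 50). Lists covered other droplet proteins, synthesis, breakdown, fatty acid activation, transcription factors and markers of adipocytes, hepatocytes, stellate cells, macrophages, cholangiocytes and endothelial cells. The alternatives were other tools, scalings, filters, medians and leaving out each library.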

Additional observations from a re-analysis of the deposited data

How the results depend on the processing

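Of the 19 called log2 ratios of group means, 152 values were recomputed with CPM, group medians or 1 library left out. In 149 the ratio moved by less than the spread between replicates, in 3 by more (Cidea on the diet with medians or without chow replicate 8, and Plin4 between vehicle and chow with medians), and 0 reversed. Leaving out 1 of 3 libraries can move a group mean by only part of its SD. Most values of that kind were thus bound to move by less than the spread, and the 149 do not measure robustness. In every called ratio the libraries of the groups compared did not overlap. Medians or leaving out a library therefore could not reverse it, and of the alternatives only CPM could. The counts of called genes depended on the test. On the diet 4 members were called by the deposited DESeq2 test and 1 by edgeR (0 to 2 with 1 library left out). Those edgeR fits with 1 library left out called 2 to 51 of the 1226 genes called by the authors. Between PCN and uninjected livers 5 were called and 3 by edgeR (0 to 4 with 1 library left out). Those fits called 0 to 174 of the 809 genes called by the authors. For vehicle against chow (2), PCN against vehicle (2) and PCN against chow (3) edgeR called 0 of these, with 0 in each leave-one-out fit. Those fits called 0 to 46, 0 to 23 and 139 to 711 of the 790, 442 and 2032 genes called by the authors, in that order. Between vehicle and uninjected livers edgeR called 0 of the members and 1 of all genes. The deposited test called 3 and 206, a DESeq2 refit 4 and 268, and edgeR without an expression filter 4 and 283. With 1 library left out edgeR called 0 members and 0 to 9 of all genes. Where leaving out a library left an arm with 2, the spread was still estimated over both arms. Uncalled ratios changed direction in some alternative for Cideb, Dgat2, Plin5 and Pnpla3 (vehicle against uninjected), Cidec and Mogat1 (vehicle against chow) and Plin2 (diet against chow). No paired analysis was possible because no replicate number occurs in more than 1 group. Low depth limits Cidea in chow and PCN and Pnpla3 throughout, and members without counts in chow and PCN could not be compared there.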
